A study of Mus musculus with 8 samples.

Results

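Tight junctions are the belts of strands that seal the space between neighbouring epithelial cells. The 9 genes described here were chosen by name as tight junction genes: 6 claudins (Cldn1, Cldn4, Cldn7, Cldn8, Cldn12 and Cldn23), occludin (Ocln), the junctional adhesion molecule JAM-A (F11r) and the scaffold ZO-1 (Tjp1). They are 9 of the 15995 genes with a value in the deposited expression table, and all 9 were among the 11395 genes tested between genotypes. RNA was sequenced from epidermis peeled from newborn C57BL/6J mice, 4 samples labelled ZFP750-/- (knockout) and 4 labelled WT (wild type). C57BL/6J is an inbred laboratory strain, and Zfp750 encodes a zinc finger regulator of late keratinocyte differentiation. The labels give no other allele or agent, and they do not say which part of Zfp750 was removed, the exact age, or whether a sample was 1 pup or a pool. The p-values therefore measure the spread between these samples.

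Claudins are small membrane proteins that span the membrane and join across the gap between cells, and the set a tissue makes decides what its junctions let through. Occludin and JAM-A sit in or beside the same strands, and ZO-1 ties the strands to actin from the inside. In the epidermis functional tight junctions form in the granular layer, under the cornified sheet, and mice without Cldn1 die soon after birth from water loss through the skin.

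Levels are in FPKM, fragments scaled to transcript length and library size. This allows a rough comparison between genes and between libraries, but does not bring the libraries to a common total. Each change is the knockout mean less the wild-type mean of log2(FPKM + 1), from limma, a linear model fitted to every tested gene. A gene was called where the Benjamini-Hochberg adjusted p over all 11395 genes was under 0.05. Summed FPKM ranged from 483416 to 577300 per library, and 10637 to 11599 genes reached 1 FPKM. Zfp750 itself stood at 1.53 to 2.68 FPKM in the knockouts and 81.6 to 119 FPKM in the wild types. Knockouts 1 and 2 both carry the number 1 in their titles and differ in a second title code, which the labels do not explain. Code 11 marks knockout 1 and wild type 4, code 14 marks knockout 2 and wild type 3, and code 44 marks knockouts 3 and 4 and wild types 1 and 2.

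The tissue label was checked against lists of marker genes. Granular keratinocyte markers were abundant in every library, with a summed level of 12828 to 19522 FPKM over 8 genes in the knockouts and 14042 to 17301 FPKM in the wild types. Of these 8, 1 was called higher and 2 lower. The cornified envelope protein gene Ivl rose from 195 to 543 FPKM, while the protease gene Casp14 fell from 373 to 150 FPKM and Cdsn, of the corneodesmosomes, from 554 to 240 FPKM (means, n = 4; limma adjusted p = 8.44e-04, 0.00546 and 0.00247). Flg had no value in the table. Basal keratinocyte markers summed to 2404 to 6306 FPKM over 9 genes in the knockouts and 1142 to 3549 FPKM in the wild types, and 6 of the 9 were called higher. Markers of simple epithelium and Merkel cells summed to 417 to 741 FPKM in the knockouts and 8.78 to 17.7 FPKM in the wild types. Krt8 made up most of the knockout sum, at 403 to 732 FPKM, while the Merkel cell genes Krt20, Atoh1, Sox2 and Piezo2 reached at most 0.791 FPKM in any library. Langerhans and myeloid cell markers summed to 4.48 to 7.90 FPKM in the knockouts and 50.5 to 83.0 FPKM in the wild types, with 6 of 7 tested genes called lower. Over all genes tested 6.72% were called higher and 8.94% lower. Only genes at 1 FPKM or more in at least 4 libraries were tested. Ptprc and Csf1r passed this filter on low values through the wild types alone, so their lower level in the knockouts was fixed in advance. Hair follicle markers summed to 379 to 890 FPKM in the knockouts against 193 to 476 FPKM in the wild types. Krt17 made up most of this sum, at 293 to 814 against 137 to 386 FPKM, and none of the 8 tested genes was called. By mean, Krt71, Krt27 and Krt25 were lower in the knockouts, Gata3, Lhx2, Sox9 and Shh higher, and Krt73 alike. Krt27, not tested, stood at 0.0898 to 0.520 against 0.838 to 6.62 FPKM. Melanocyte markers summed to 18.2 to 93.0 FPKM against 14.6 to 84.5 FPKM, and fibroblast markers to 22.9 to 192 FPKM against 31.2 to 90.8 FPKM. Markers of sweat and sebaceous glands summed to 18.5 to 31.8 FPKM in the knockouts and 24.0 to 31.6 FPKM in the wild types. Scd1 made up most of this sum, at 16.4 to 30.5 against 22.0 to 28.7 FPKM. Awat2, not tested, stood at 0.486 to 0.735 against 0.888 to 1.36 FPKM, while Aqp5, Foxa1 and Mogat1 overlapped between genotypes. The 4 endothelial markers with values summed to at most 0.859 FPKM. The part of these marker differences in the results on claudins was not tested.

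RefSeq promoter windows (build GRCm38.p6) matched 7 of the 9 genes, and 3 are shown: Cldn7 and Cldn4, both called higher in the knockouts, and Cldn1, the most abundant claudin of wild-type epidermis, which was not called. Each line gives the 250 bases before the start of transcription, 5′ to 3′ on the gene's own strand. Capitals mark the motif CCNNNAGGC, known from human ZNF750, on either strand. The Cldn7 stretch is chr11:69964529-69964778 on the plus strand, the Cldn4 stretch chr5:134946935-134947184 on the minus strand and the Cldn1 stretch chr16:26371840-26372089 on the minus strand.
Cldn7: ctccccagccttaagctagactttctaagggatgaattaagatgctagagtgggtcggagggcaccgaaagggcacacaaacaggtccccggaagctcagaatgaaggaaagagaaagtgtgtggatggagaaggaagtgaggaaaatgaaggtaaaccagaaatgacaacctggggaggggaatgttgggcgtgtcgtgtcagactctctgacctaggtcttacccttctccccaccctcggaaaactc
Cldn4: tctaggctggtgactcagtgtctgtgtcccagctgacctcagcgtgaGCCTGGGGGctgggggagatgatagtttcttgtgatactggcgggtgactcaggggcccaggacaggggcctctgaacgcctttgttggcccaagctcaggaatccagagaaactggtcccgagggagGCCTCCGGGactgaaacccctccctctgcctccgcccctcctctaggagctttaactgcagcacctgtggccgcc
Cldn1: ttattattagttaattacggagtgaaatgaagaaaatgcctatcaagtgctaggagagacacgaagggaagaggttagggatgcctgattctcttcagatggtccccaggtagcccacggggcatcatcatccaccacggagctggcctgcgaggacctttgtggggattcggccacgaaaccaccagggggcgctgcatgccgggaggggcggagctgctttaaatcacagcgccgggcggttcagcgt

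The Cldn4 stretch held the ZNF750 motif 2 times, at 203 and 75 bases before the start on the opposite strand, and the other 2 stretches held no match. Of 32851 RefSeq promoter windows of the same length, 19.8% hold at least 1 match. Cldn4 also held the AP-1 letters TGANTCA at 240 and 158 bases before the start, found in 6.75% of windows. The second of these overlaps a KLF-type box (CACCC) at 161 bases on the opposite strand. Cldn7 held a KLF-type box at 16 bases, and Cldn1 held none, against 52.0% of windows. The GC box GGGCGG lay in Cldn1 at 42 and 14 bases and in Cldn4 at 44 bases (32.7% of windows). The E-box CAGGTG lay in Cldn4 at 14 bases (17.2% of windows). TATAAA (12.4% of windows) and the Grainyhead letters AACCGGTT (0.116% of windows) were in none of the 3. Both strands were searched, and a match is a description of the letters only.

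Of the 9 tight junction genes, 2 were called higher in the knockouts and 1 lower, and 6 did not pass. Over all genes tested 15.7% were called, 6.72% higher and 8.94% lower. The groups did not overlap for the same 3 genes, against 21.3% of all genes tested. Cldn7 passed the filter on low values through the knockouts alone, so its part in these counts was fixed in advance. The median change of the 9 genes was -0.23, beside 0.0072 over all genes tested. Cldn7 had the largest change, from under 1 FPKM to over 10, Cldn4 averaged 2.23 times its wild-type level with a wide spread between knockouts, and Cldn23 was 3.34 times higher in the wild types than in the knockouts. In whole epidermis a lower share of cells of a kind and less RNA per cell cannot be told apart.

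**Figure D1:**
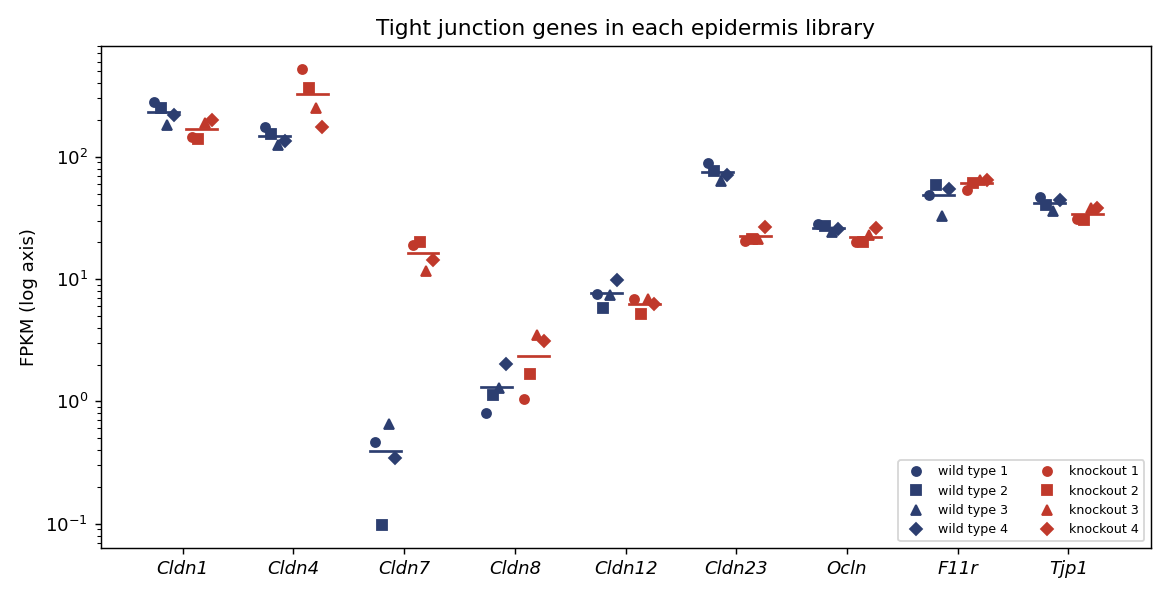
Level of each tight junction gene in FPKM (log axis) in the 4 wild-type (blue) and 4 knockout (red) libraries; symbols mark the libraries and short lines the group means. Cldn7, Cldn4 and Cldn23 are the genes whose groups do not overlap, and the 4 knockout points of Cldn4 spread from 175 to 524 FPKM.

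Cldn7, a claudin of many simple epithelia that binds the adhesion protein Epcam, was nearly missing from wild-type epidermis. It stood at 19.0, 20.0, 11.5 and 14.4 FPKM across knockouts 1 to 4, and at 0.468, 0.0978, 0.652 and 0.344 FPKM in wild types 1 to 4. Every knockout lay above every wild type, with knockouts 1 and 2 somewhat above knockouts 3 and 4. The mean rose from 0.390 ± 0.232 FPKM (SD, n = 4) to 16.2 ± 3.96 FPKM (SD, n = 4), a change of 3.62 ± 0.21 (SE; limma adjusted p = 1.20e-05). The pseudocount of 1 holds this value down: with a pseudocount of 0.01 the change was 5.58, and the ratio of the mean FPKM was 41.6. Cldn7 passed the filter on low values through the knockouts alone, so a gene in its place had to differ. The ratio within title codes was 55.2 for code 11, 30.7 for code 14 and 45.9 for code 44, and the call held in each of the 22 other settings tried. The simple epithelial keratins Krt8 and Krt18 were called higher in the same libraries, at 403 to 732 against 0.904 to 2.40 FPKM and 1.48 to 12.2 against 0.278 to 0.562 FPKM, where Krt18 too passed the filter through the knockouts alone. Krt7 and Krt19, of the same kind, did not follow: Krt7 stood at 4.57 to 6.47 against 6.45 to 9.86 FPKM (-0.54, limma adjusted p = 0.0510), and Krt19, not tested, at 0.547 to 1.02 against 0.188 to 2.57 FPKM. The part of these keratins in the level of Cldn7 was not tested.

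Cldn7 (ENSMUSG00000018569) spans bases 69964779 to 69967885 of chromosome 11 (GRCm38, plus strand) with 3 to 5 exons in its 5 coding transcripts. No other annotated gene overlaps it. Its nearest neighbours with a value were Slc2a4, the insulin-sensitive glucose transporter, 16590 bases away, and Elp5, an Elongator subunit, 336 bases away on the opposite strand. Elp5 stood at 29.0 ± 1.47 FPKM in the knockouts and 23.3 ± 1.71 FPKM in the wild types (both SD, n = 4; limma adjusted p = 0.0761). Slc2a4 stood at 0.921 ± 0.624 against 1.07 ± 0.812 FPKM (SD, n = 4; limma adjusted p = 0.890). The genes with a profile most like that of Cldn7 over the 8 libraries were Lpo, Atp1b1 and Rab11fip5. Likeness was the root mean square difference of mean-centred log2 values, which was 0.24, 0.34 and 0.35 on that scale. Lpo, a secreted peroxidase, stood at 17.7 to 29.6 FPKM in the knockouts and 0.595 to 1.75 FPKM in the wild types. Atp1b1, a subunit of the sodium pump, stood at 22.6 to 35.7 against 1.82 to 4.34 FPKM. Rab11fip5, of membrane traffic, stood at 28.8 to 41.1 against 1.21 to 2.52 FPKM. The higher knockout levels of Lpo, Atp1b1 and Rab11fip5 follow from their choice by likeness to Cldn7 over the same libraries.

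Cldn23, a claudin also known from differentiated cells of the gut lining, was the only one of the 9 called lower. It stood at 20.5, 21.2, 21.4 and 26.6 FPKM across knockouts 1 to 4, and at 88.4, 76.9, 63.4 and 70.8 FPKM in wild types 1 to 4. The knockouts lay close together, and the highest of them was below every wild type by a wide margin. The mean fell from 74.8 ± 10.6 FPKM (SD, n = 4) to 22.4 ± 2.81 FPKM (SD, n = 4), a change of -1.69 ± 0.13 (SE; limma adjusted p = 5.36e-05). Within title codes the ratio of knockout to wild type was 0.289, 0.335 and 0.290 for codes 11, 14 and 44. The call held in all 22 other settings, with changes from -1.80 to -1.5.

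Cldn23 (ENSMUSG00000055976) spans bases 35824712 to 35826559 of chromosome 8 (GRCm38, minus strand) in 1 or 2 exons, and no annotated gene overlaps it. Mfhas1, its nearest listed neighbour on the lower side at 145262 bases, went the other way, from 14.4 ± 1.28 to 21.9 ± 1.83 FPKM (SD, n = 4), a change of 0.57 ± 0.11 (SE; limma adjusted p = 0.00882). The neighbour on the higher side, 5430403N17Rik, had a mean of at most 0.128 FPKM in either genotype. Nebl, the actin-binding protein nebulette, had the profile nearest to that of Cldn23, with a root mean square difference of 0.055 on the log2 scale. It stood at 11.7, 12.3, 14 and 16.2 FPKM across knockouts 1 to 4 and 53.7, 47.2, 37.2 and 44.3 FPKM in wild types 1 to 4. Libraries ranked the same way for both genes within each genotype, but Nebl was chosen for its likeness to Cldn23 over these same libraries. Tfr2, a transferrin receptor, and Dkkl1 followed, with differences of 0.11 and 0.12. Tfr2 stood at 0.192 to 0.473 FPKM in the knockouts and 2.72 to 3.57 FPKM in the wild types. It passed the filter on low values through the wild types alone, so its lower knockout level was fixed in advance.

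Cldn4, a barrier-forming claudin of the granular layer, was called higher, with the widest spread among the abundant members. It stood at 524, 363, 249 and 175 FPKM across knockouts 1 to 4, and at 174, 152, 126 and 135 FPKM in wild types 1 to 4. The groups did not overlap, but knockout 4 exceeded wild type 1 by less than 1 FPKM. The mean was 328 ± 152 FPKM (SD, n = 4) in the knockouts and 147 ± 21.5 FPKM (SD, n = 4) in the wild types, a change of 1.05 ± 0.30 (SE; limma adjusted p = 0.0404). The ratio of knockout to wild type was 3.89 for title code 11, 2.89 for code 14 and 1.30 for code 44. With codes 11 and 14 alone the change was 1.74 (limma adjusted p = 0.00670), and with code 44 alone 0.36 (limma adjusted p = 0.301). The difference between these changes, tested as an interaction in 1 fit, was -1.38 ± 0.32 (SE; limma adjusted p = 0.182, unadjusted p = 0.00279), in a test that called 0 of 11395 genes. The call did not hold without knockout 1, knockout 2, knockout 3 or any 1 wild type, where limma adjusted p ran from 0.0636 to 0.104, and was kept without knockout 4 (0.00498).

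Cldn4 also lost its call with log2 Xist as a covariate (0.87, limma adjusted p = 0.184). Xist, which coats the silenced X in female cells, read 126, 84.6, 150.4 and 1.84 FPKM across knockouts 1 to 4 and at 0.0223, 0.00870, 118 and 0.00825 FPKM in wild types 1 to 4, so the high readings fell in 3 knockouts and 1 wild type. Cldn4 (ENSMUSG00000047501) is a gene of 1 exon at bases 134945119 to 134946934 of chromosome 5 (GRCm38, minus strand). On its higher side its nearest listed neighbour is another claudin, Cldn3, at 39279 bases. On the lower side it is Eln, elastin, with means of 1.08 and 0.346 FPKM in knockouts and wild types. The nearest profiles were Itpkc, a kinase of inositol phosphates, Zc3hav1, an antiviral RNA-binding protein, and Tiparp, a target of the aryl hydrocarbon receptor, at 0.18, 0.20 and 0.21. Tiparp stood at 76.2, 59.0, 25.1 and 24.3 FPKM across knockouts 1 to 4 and 16.3 to 19.4 FPKM in the wild types. Its high values in knockouts 1 and 2 follow from its choice by likeness to Cldn4 over the same libraries.

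**Figure D2:**
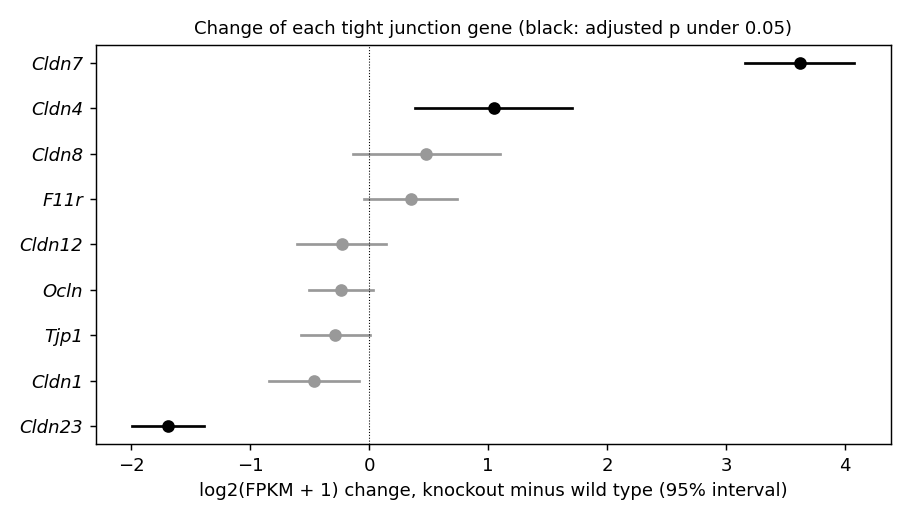
Change of each tight junction gene between genotypes on the log2(FPKM + 1) scale with its 95% interval from limma; black marks an adjusted p under 0.05. Cldn7 at 3.62, Cldn4 at 1.05 and Cldn23 at -1.69 are called, and the other 6 lie between -0.46 and 0.48.

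Cldn1, the claudin without which newborn mice lose water through the skin, did not pass. It stood at 146, 140, 189 and 198 FPKM across knockouts 1 to 4, and at 278, 248, 183 and 218 FPKM in wild types 1 to 4. The groups overlapped through wild type 3, which lay below knockouts 3 and 4. The mean was 168 ± 29.8 FPKM in the knockouts and 232 ± 41.0 FPKM in the wild types (both SD, n = 4), a change of -0.46 ± 0.17 (SE; limma adjusted p = 0.101). Its 95% interval ran from -0.84 to -0.08. Within title codes the ratio of knockout to wild type was 0.668, 0.766 and 0.736 for codes 11, 14 and 44, so the overlap lies between codes. The change was -0.48 with codes 11 and 14 alone and -0.44 with code 44 alone. With log2 Xist as covariate it was -0.23 (limma adjusted p = 0.491). Of 22 alternatives 2 called Cldn1 lower, array weights (limma adjusted p = 0.0080) and title code as a replicate block (limma adjusted p = 0.0132). What the code stands for is unknown. Cldn1 (ENSMUSG00000022512) lies on chromosome 16 from 26356642 to 26371841 (GRCm38), minus strand, with 4 exons.

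Cldn8, a claudin of the kidney collecting duct that is scarce here, stood at 1.04, 1.69, 3.49 and 3.10 FPKM across knockouts 1 to 4, and at 0.803, 1.12, 1.29 and 2.03 FPKM in wild types 1 to 4. Knockouts 3 and 4 were above every wild type, while knockouts 1 and 2 lay within the wild-type range. The change was 0.48 ± 0.27 (SE; limma adjusted p = 0.295), with a 95% interval of -0.13 to 1.10. With code 44 alone it was 1.13 (limma adjusted p = 0.0306), and with codes 11 and 14 alone -0.17 (limma adjusted p = 0.657). The interaction was 1.30 ± 0.32 (SE; limma adjusted p = 0.182, unadjusted p = 0.00364). Cldn8 (ENSMUSG00000050520) is a gene of 1 exon on chromosome 16 from 88560828 to 88563183 (GRCm38).

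Cldn12, an atypical claudin that lacks the usual end for binding ZO proteins, stood at 6.91, 5.20, 6.82 and 6.26 FPKM across knockouts 1 to 4, and at 7.59, 5.82, 7.36 and 9.79 FPKM in wild types 1 to 4. The ranges overlapped, and the change was -0.23 ± 0.17 (SE; limma adjusted p = 0.412; 95% interval -0.60 to 0.14). Cldn12 (ENSMUSG00000046798) lies on chromosome 5 from 5489537 to 5514958 (GRCm38).

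**Figure D3:**
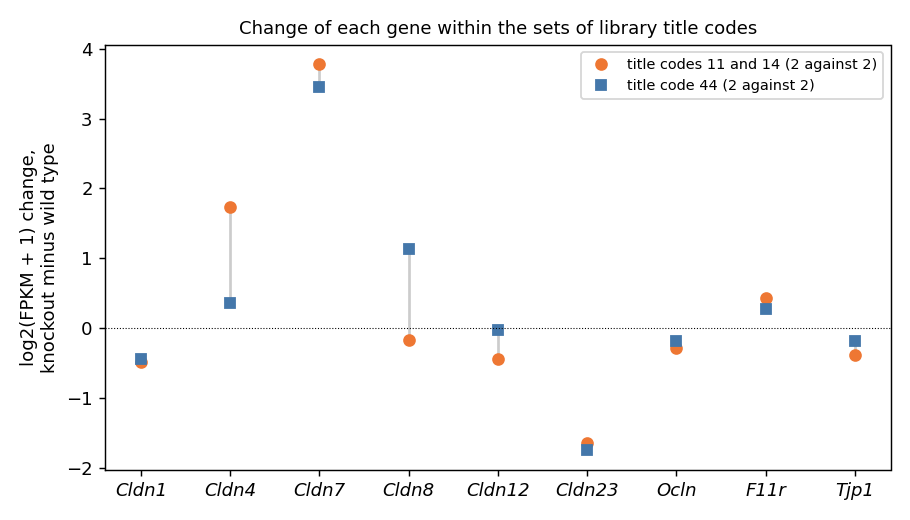
Change of each gene on the log2(FPKM + 1) scale (vertical axis) computed within title codes 11 and 14 (orange circles, 2 libraries against 2) and within code 44 (blue squares, 2 against 2). Cldn4 (1.74 and 0.36) and Cldn8 (-0.17 and 1.13) lie farthest apart, and Cldn1 (-0.48 and -0.44) lies closest together. Cldn7 lies at 3.78 and 3.45 and Cldn23 at -1.64 and -1.75.

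The 3 members that are no claudins all stayed short of the threshold. Occludin (Ocln) stood at 20.2, 20.0, 22.8 and 26.0 FPKM across knockouts 1 to 4, and at 28, 27.4, 24.0 and 25.4 FPKM in wild types 1 to 4. Only knockout 4 reached into the wild-type range. The change was -0.23 ± 0.12 (SE; limma adjusted p = 0.239), with a 95% interval of -0.50 to 0.03. JAM-A (F11r), an immunoglobulin-type adhesion protein, stood at 53.6, 61.5, 64.3 and 64.9 FPKM across knockouts 1 to 4, and at 48.8, 58.5, 32.9 and 54.3 FPKM in wild types 1 to 4. Wild type 3 was the low library, and the change was 0.35 ± 0.17 (SE; limma adjusted p = 0.226; 95% interval -0.04 to 0.74). With log2 Xist as covariate F11r passed, at 0.62 (limma adjusted p = 0.0397), and without wild type 3 its change was 0.18 (limma adjusted p = 0.372). The scaffold Tjp1 stood at 30.7, 30.2, 37.9 and 38.3 FPKM across knockouts 1 to 4, and at 46.8, 40.0, 36.2 and 44.6 FPKM in wild types 1 to 4. Its groups overlapped through wild type 3, and the change was -0.28 ± 0.13 (SE; limma adjusted p = 0.188; 95% interval -0.58 to 0.01). Ocln (ENSMUSG00000021638) lies on chromosome 13 from 100496507 to 100552718, F11r (ENSMUSG00000038235) on chromosome 1 from 171437535 to 171464603 and Tjp1 (ENSMUSG00000030516) on chromosome 7 from 65296165 to 65527781 (GRCm38).

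Cldn1, Tjp1, Ocln and Cldn23 shared an order of libraries in part. All 4 were highest in wild type 1 and lowest in wild type 3 among the wild types, and highest in knockout 4 among the knockouts. The ratio of Ocln to Tjp1 stayed between 0.570 and 0.685 in all 8 libraries. The ratio of Cldn23 to Cldn1 was 0.309 to 0.347 in the wild types and 0.113 to 0.152 in the knockouts.

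By mean level the order in the wild types was Cldn1, Cldn4, Cldn23, F11r, Tjp1, Ocln, Cldn12, Cldn8 and Cldn7, and only F11r and Tjp1 overlapped as neighbours in that order. In the knockouts Cldn4 came first and Cldn1 next, with overlapping ranges, followed by F11r and Tjp1. Cldn23, Ocln and Cldn7 came next, and each overlapped its neighbour among these 3. Cldn12 and Cldn8 were last.

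The makeup of the claudin transcripts was nearly constant in the wild types and varied in the knockouts. FPKM was summed over 14 claudins, leaving out Cldn25 (27.2 to 41.9 FPKM) because its symbol is ambiguous, and a Cldn34 relative listed under a clone name (at most 0.514 FPKM). Cldn1 took 50.4%, 51.1%, 47.6% and 49.8% of this sum in wild types 1 to 4, against 20.1%, 25.1%, 38.8% and 45.6% in knockouts 1 to 4. Cldn4 took 31.6%, 31.3%, 32.7% and 30.8% in wild types 1 to 4, against 72.4%, 65.0%, 51.1% and 40.3% in knockouts 1 to 4. The knockout shares thus lay outside the wild-type range in every library for both genes. Cldn23 took 15.8% to 16.5% of the wild-type sum and 2.83% to 6.12% of the knockout sum. Cldn7 took 2.37% to 3.59% of the knockout sum and at most 0.170% of the wild-type sum. The sum itself was 551 ± 126 FPKM (SD, n = 4) in the knockouts and 465 ± 71.4 FPKM (SD, n = 4) in the wild types, with overlapping ranges of 435 to 724 and 384 to 552 FPKM. These shares follow from the same levels and are given as a description, with no test.

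**Figure D4:**
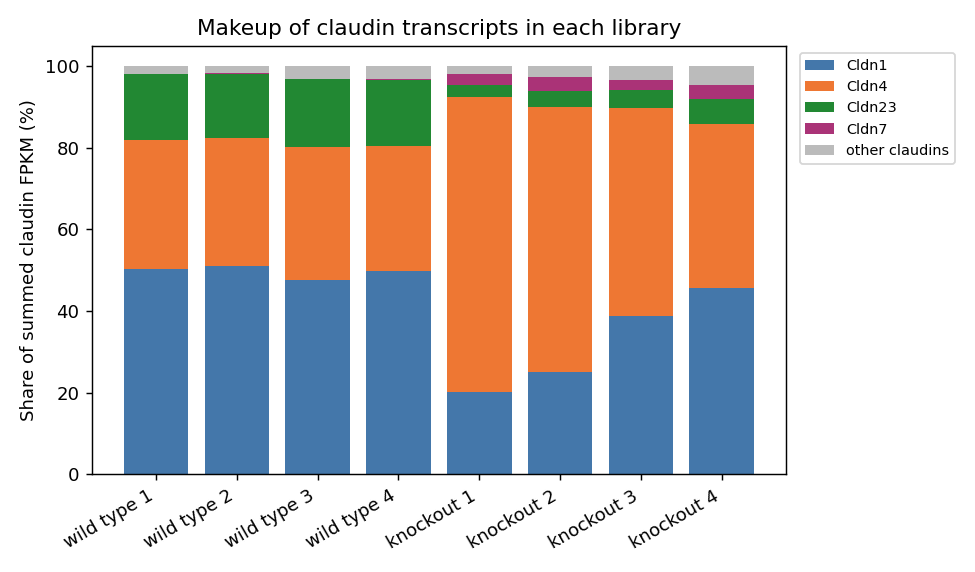
Share of the summed claudin FPKM (vertical axis, percent) taken by Cldn1, Cldn4, Cldn23, Cldn7 and the other claudins in each library. The wild-type bars are alike, with Cldn1 at 47.6% to 51.1%, and the knockout bars differ among themselves, with Cldn4 from 40.3% to 72.4%.

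Of 20 other claudin genes listed, 10 had values and 3 were tested. The 2 called higher, Cldn9 and Cldn3, passed the filter through the knockouts alone, as Cldn7 did, so their count supports nothing beside the 6.72% of all genes called higher. Cldn9, a claudin best known from the inner ear, stood at 2.88, 2.42, 3.61 and 5.55 FPKM across knockouts 1 to 4, and at 0.176, 0.0652 and 0.0568 FPKM in wild types 1, 3 and 4, with no value in wild type 2. All 4 knockouts exceeded all wild types, and the change was 2.06 ± 0.21 (SE; limma adjusted p = 1.95e-04). With a pseudocount of 0.01 its change was 5.96. Cldn3, a close relative of Cldn4, stood at 1.32, 1.53, 1.37 and 2.22 FPKM across knockouts 1 to 4, and at 0.993, 0.315, 0.757 and 0.171 FPKM in wild types 1 to 4. Its change was 0.76 ± 0.21 (SE; limma adjusted p = 0.0363), and the call was lost without any 1 knockout, wild type 2 or wild type 4 (0.0554 to 0.1001). It was 1.56 with a pseudocount of 0.1, at which the call was also lost (0.0516). Cldn25, an older symbol of the claudin-like Cldnd1 that a pseudogene has also carried, stood at 32.2 to 41.9 against 27.2 to 33.3 FPKM (limma adjusted p = 0.114). Cldn6, next to Cldn9 on chromosome 17 and close to it in sequence, reached 2.28 FPKM in knockout 4 and at most 0.631 FPKM elsewhere. Cldn15 reached 1.84 FPKM in knockout 2. Claudins that share sequence can share fragments, so low values of single relatives are uncertain. The endothelial claudin Cldn5 had no value in the table.

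Across 6 lists of other junction genes and their regulators, 73 genes were tested, of which 13 were called higher, 6 lower and 54 did not pass, beside 6.72% higher and 8.94% lower over all genes tested. Cldn9 and Cldn3 are among the 13. The median change of the 73 tested genes was 0.14. These lists were drawn up with earlier results of the same data in view.

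Among other junction membrane proteins, 3 of 6 tested genes were called, all higher, beside 6.72% called higher over all genes tested. Crb3, the apical polarity protein Crumbs 3, stood at 18.8, 25.1, 16.3 and 18.0 FPKM across knockouts 1 to 4 and 13.1, 8.57, 12.2 and 9.35 FPKM in wild types 1 to 4 (0.80 ± 0.18, SE; limma adjusted p = 0.0146). Cxadr, the coxsackie and adenovirus receptor, stood at 54.4 to 71.8 against 41.5 to 51.4 FPKM (0.45 ± 0.12, SE; limma adjusted p = 0.0334). Marveld3, a relative of occludin, stood at 4.02, 5.41, 7.31 and 8.85 FPKM across knockouts 1 to 4 against 3.12 to 3.71 FPKM in the wild types (0.70 ± 0.21, SE; limma adjusted p = 0.0487). The tricellular proteins Marveld2 (0.37, limma adjusted p = 0.346) and Lsr (-0.09, limma adjusted p = 0.652) did not pass. Cxadr lost its call without any 1 of 6 libraries (all but knockout 4 and wild type 4; up to 0.102), and Marveld3 without any 1 of 7 (all but knockout 1; up to 0.124).

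Among other plaque and polarity proteins, 3 of 24 tested genes were called higher and 3 lower, beside 6.72% and 8.94% of all genes tested. Those called lower were the scaffold ZO-3 (Tjp3; -0.71 ± 0.21, SE; limma adjusted p = 0.0492), cingulin (Cgn), which links ZO-1 to actin and myosin, and the polarity scaffold Pard3. Tjp3 stood at 13.6, 19.5, 24.2 and 28.6 FPKM across knockouts 1 to 4, below all wild types at 30.3 to 39.8 FPKM. Cgn stood at 18.4, 20.1, 21.1 and 32.1 FPKM across knockouts 1 to 4 and 31.3 to 40.9 FPKM in the wild types (-0.61, limma adjusted p = 0.0449). Pard3 stood at 50.9 to 55.4 against 65.0 to 77.6 FPKM (-0.41, limma adjusted p = 0.0200). Those called higher were Mpp5, the partner of Crumbs known as Pals1 (0.67), the atypical protein kinase C gene Prkcz (0.74) and the angiomotin relative Amotl2 (0.64), with limma adjusted p of 0.0219, 0.0243 and 0.0294. Mpp5 stood at 9.56 to 14.6 FPKM in the knockouts and 5.77 to 8.36 FPKM in the wild types. Amotl2 stood at 51.9 to 76.7 against 34.3 to 51.5 FPKM. Prkcz was scarce, at 1.94 to 3.69 against 1.10 to 1.33 FPKM, near the filter of 1 FPKM. Tjp3 lost its call without any 1 library other than knockout 4 (up to 0.130), as did Cgn (up to 0.129). Pard3 lost it without knockout 2, wild type 1 or wild type 2 (0.0540 to 0.0710), Prkcz without knockout 3, wild type 1 or wild type 2 (0.0653 to 0.0720) and Mpp5 without knockout 3 or wild types 1, 2 or 3 (0.0503 to 0.0681). Amotl2 lost it without knockouts 2 or 3 or wild types 2, 3 or 4 (0.0529 to 0.0863).

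Among claudin partners and junction proteases, 2 of 12 tested genes were called higher and 2 lower, beside 6.72% and 8.94% of all genes tested. The tetraspanins Cd82 and Cd9, membrane organisers, rose. Cd82 stood at 47.8, 51.6, 57.3 and 80.2 FPKM across knockouts 1 to 4 and 14 to 21.7 FPKM in the wild types (1.74 ± 0.19, SE; limma adjusted p = 2.72e-04). Cd9 stood at 306 to 352 against 227 to 252 FPKM (0.50, limma adjusted p = 0.00891). Prss8, the membrane protease prostasin, which acts with matriptase in building the epidermal barrier, stood at 36.6, 46.7, 44 and 59.6 FPKM across knockouts 1 to 4 and 108, 77.1, 131 and 75.8 FPKM in wild types 1 to 4 (-1.04 ± 0.21, SE; limma adjusted p = 0.00898). Its inhibitor Spint2 was called lower by 0.36 (limma adjusted p = 0.0398), and lost that call without knockouts 1, 2 or 3 or wild types 1, 2 or 4 (0.0733 to 0.116). Matriptase itself (St14; 0.17, limma adjusted p = 0.380) did not pass. Epcam, the binding partner of Cldn7, stood at 108, 124, 60.8 and 52.9 FPKM across knockouts 1 to 4 and 63.8 to 103 FPKM in the wild types (0.02, limma adjusted p = 0.976).

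Adherens junctions, the cadherin belts just below tight junctions, gave 1 gene called higher and 1 lower of 12 tested. The shares over all genes tested were 6.72% higher and 8.94% lower. Nectin-3, listed as Pvrl3, stood at 7.73, 8.93, 5.54 and 2.17 FPKM across knockouts 1 to 4 and 18.8 to 24.5 FPKM in the wild types (-1.87 ± 0.32, SE; limma adjusted p = 0.00399). Nectin-2, listed as Pvrl2, stood at 41.2 to 52.7 against 24.9 to 30.6 FPKM (0.78 ± 0.12, SE; limma adjusted p = 0.00213). Cdh1, E-cadherin, stood at 160 to 191 against 148 to 175 FPKM (0.16, limma adjusted p = 0.372).

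Of 16 tested epithelial transcription factors, 2 were called higher, beside 6.72% of all genes tested. Elf3, an epithelial ETS factor, stood at 28.3, 30.7, 24.5 and 33.0 FPKM across knockouts 1 to 4 and 3.68 to 7.62 FPKM in the wild types (2.17 ± 0.19, SE; limma adjusted p = 9.13e-05). Tfap2a stood at 28.2 to 49.8 against 18.4 to 23.0 FPKM (0.91 ± 0.19, SE; limma adjusted p = 0.0101). The Grainyhead factors Grhl1 (-0.53, limma adjusted p = 0.0530), Grhl2 (0.32, limma adjusted p = 0.440) and Grhl3 (0.54, limma adjusted p = 0.198), known for their part in epithelial junctions, did not pass.

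**Figure D5:**
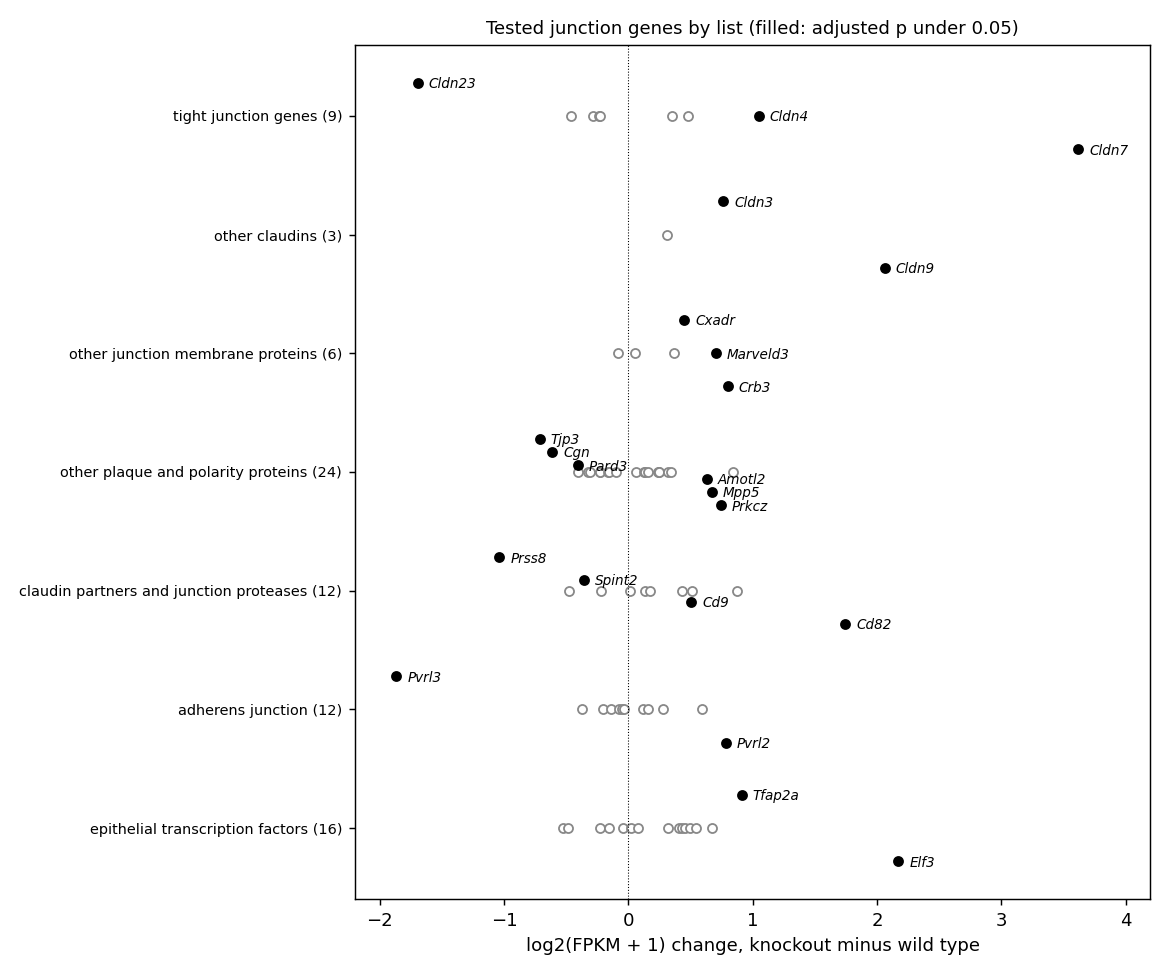
Change on the log2(FPKM + 1) scale (horizontal axis) of every tested gene of each list, with the number tested in brackets; filled points with names are called at an adjusted p under 0.05. Cldn7, Elf3 and Cldn9 lie farthest to the right and Pvrl3 and Cldn23 farthest to the left.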

How the data were processed

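Total RNA from peeled newborn epidermis was depleted of ribosomal RNA and sequenced as stranded paired-end libraries, per the labels' protocols. The authors deposited 1 table of FPKM values per gene symbol and library. The submitters' processing notes name the mouse build mm10. No aligner, quantifier, annotation or strand setting is given in the sources used here. FPKM values keep no counts, and the absolute depth of each library is not known here, so no counting interval is given.

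A missing value (2029 genes lack at least 1) was taken as 0. Genes at 1 FPKM or more in at least 4 of the 8 libraries were tested (3 in fits on 7 libraries, 2 on 4). Left out were 4 genes listed at 0 in some libraries and above 100 FPKM in others. log2(FPKM + 1) was fitted with limma 3.58.1 in R 4.3.3, with genotype as the only term and a mean-variance trend. The fit was also run on simulated data drawn independently for each gene, which cannot show the error rate where genes vary together. Fold changes on that scale understate changes of low genes. Adjustment was Benjamini-Hochberg over all 11395 genes.

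Named genes are the 9 members, up to 6 called genes per list by p, other claudins reaching 1 FPKM, the 3 nearest profiles and the nearest listed neighbours of each called member. List genes named beyond that rule, all given as not passing, were picked after their values were seen, as were the motifs. Members and lists were chosen with earlier results of these data known. Older symbols were used for 6 list genes outside the nectins, and coordinates come from GENCODE (GRCm38, the same assembly as mm10). Alternatives covered the pseudocount, filter, scaling, trend, array weights, title codes, Xist as covariate and leaving out each library.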

Additional observations from a re-analysis of the deposited data

Results flagged for a closer look

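Among the 9 tight junction genes, the highest and the lowest library of each genotype were compared with the others of that genotype by Dixon's ratio. In knockout 4, Cldn23 stood at 26.6 FPKM, above the other 3 knockouts by a gap of 0.854 of the group's whole range, which exceeds Dixon's 95% critical value. It was still below every wild type. This was 1 of 18 groups checked, and chance alone gives about 1 in 20.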

How the results depend on the processing

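Cldn7 and Cldn23 kept direction and call in all 22 alternatives, and Cldn4 kept its call in 10 of 22. The number of members called higher went from 2 to 1 with no filter on low values (Cldn4 limma adjusted p = 0.0574), with median-of-ratios scaling (0.0527) and with knockouts 1 and 2 averaged, an alternative added after seeing the data (0.0852). It was 1 to 2 leaving out 1 library at a time, and members called lower stayed at 1. With array weights 6 members were called, 4 of them lower (Cldn1, limma adjusted p = 0.0080; Ocln, 0.0271; Tjp1, 0.0322; and Cldn23). With title code as a replicate block 2 members were called lower, Cldn1 being added (limma adjusted p = 0.0132). What the code stands for is unknown, and it changed the call of no other member. Cldn8 had no value with the filter of a mean of at least 5 FPKM, and reversed to -0.17 with codes 11 and 14 alone.

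Over all genes tested, 1785 were called, 766 higher and 1019 lower. Without 1 library the range was 1123 to 2326 in all, 474 to 1083 higher and 649 to 1243 lower, with the fewest in all without wild type 1. Array weights gave 3669 (1942 and 1727), log2 Xist as covariate 1141 (465 and 676), and title code 44 alone 575 lower. In the 6 other lists 19 were called, 13 higher and 6 lower. Without 1 library this was 9 to 25 (7 to 15 higher, 2 to 10 lower), with array weights 33 (22 and 11), and with log2 Xist 11 in all and 2 lower. The number lower was 2 with median-of-ratios scaling and with code 44 alone, and 3 with no mean-variance trend and with knockouts 1 and 2 averaged. Slc2a4 ranged from -0.28 to 0.15 without 1 library, reversed without knockout 4 (0.15) and wild type 4 (0.14), and reversed to 0.25 with array weights, and Itpkc to -0.12 with code 44 alone. The cause of these shifts was not tested.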

Other observations

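In the other junction lists, the groups did not overlap for 23 of 73 tested genes, beside 21.3% of all genes tested. Cldn9 and Cldn3 are among the 23 and passed the filter on low values through the knockouts alone, so their part was fixed in advance. The lists were drawn up with earlier results of these data known. Of the 23, 5 did not pass the test. They were picked after their values were seen. Afadin, listed as Mllt4, which links nectins to actin, stood at 29.99 to 32.7 FPKM in the knockouts and 32.8 to 42.0 FPKM in the wild types (-0.23, limma adjusted p = 0.210). Wnk1, a kinase that phosphorylates ion transporters, stood at 35.0 to 49.0 against 49.1 to 67.4 FPKM (-0.48, limma adjusted p = 0.0587). Grhl1 stood at 97.4 to 134 against 140 to 216 FPKM. Spint1, an inhibitor of matriptase, stood at 54.6 to 75.4 against 40.7 to 52.7 FPKM (0.43, limma adjusted p = 0.0709), and Arhgef11 at 11.2 to 12.4 against 9.25 to 9.97 FPKM (0.24, limma adjusted p = 0.160).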
